A study of Mus musculus with 45 samples.

Results

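Enzymes that remove superoxide, hydrogen peroxide and lipid peroxides, or that keep the cell's thiols reduced, were described in small intestinal tuft cells of mice fed a high fat diet. The set held 10 genes chosen by name, with earlier results of these data known. They were Gpx1, Gpx2, Gpx4, Cat, Sod1, Sod2, Nqo1, Hmox1, Txnrd1 and Prdx1, of the 47729 genes in the tables. All 10 were among the 14020 genes that passed the filter on low reads and were tested. Tuft cells, rare chemosensory cells of the gut epithelium, were sorted as EpCAM+ Siglec-F+ cells from male C57BL/6J mice. Their RNA was amplified and sequenced in bulk. The study's methods name the sorted cells CD45+, but also state that CD45 served to leave out cells that carry it. The mice arrived at 5 weeks of age, had 1 week on chow and were then kept in cages of 4 at thermoneutrality on a reference diet (RFD, 10% fat) or a high fat diet (HFD, 60% fat), both with lard and soybean oil. The set fed for 9 weeks held 11 RFD and 11 HFD libraries, and the set taken as fed for 22 weeks held 11 RFD and 12 HFD libraries. All 45 libraries carry 9 weeks as the feeding time in their labels, so that the time of the second set comes from the study's design, and set and time cannot be told apart. The 2 diets differ in fat and in the ingredients it replaces, so an effect of fat itself cannot be told apart from that exchange. Each library is taken as 1 mouse, and tests treat cage mates as independent.

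Superoxide is converted to hydrogen peroxide by superoxide dismutases, in the cytosol by Sod1 and in mitochondria by Sod2. Hydrogen peroxide is then removed by catalase in peroxisomes, by glutathione peroxidases and by peroxiredoxins. The last of these depend on glutathione and thioredoxin, which are kept reduced by NADPH-dependent reductases such as Txnrd1. Several of these genes, Nqo1, Hmox1, Txnrd1 and Prdx1 among them, are known targets of the transcription factor NRF2, which binds antioxidant response elements. In the intestine Gpx2 is known as the glutathione peroxidase of the epithelium.

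Of the proteins encoded here, 4 contain selenocysteine, which is encoded by an in-frame TGA codon that elsewhere ends translation. The 30 bases around that codon are shown because they mark the active site of these selenoproteins and show how close Gpx1 and Gpx2 are in this stretch. The rest of the transcripts was not compared. The codon is in capitals, and the bases are from the GENCODE M21 transcripts on GRCm38.
Gpx1: attgagaatgtcgcgtctctcTGAggcacc
Gpx2: attgagaatgtggcgtcactcTGAggaaca
Gpx4: gtcaccaacgtggcctcgcaaTGAggcaaa
Txnrd1: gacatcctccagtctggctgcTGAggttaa
Gpx1 and Gpx2 shared 26 of the 30 bases, whereas Gpx1 and Gpx4 shared 17, and Gpx1 and Txnrd1 shared 7. The codon lay in exon 1 of 2 in Gpx1 and in Gpx2, in exon 3 of 7 in Gpx4 and in the last of 15 exons in Txnrd1, in the transcript with the longest coding sequence. All deposited counts of the 10 genes were whole numbers, which shows no sign of reads divided with other genes. No exon of the 10 overlapped an exon of another gene in GENCODE M21, and the pseudogene named after one of them, Gpx2-ps1, had 7 reads in all.

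The bases before the start site are shown for the 5 genes that rose on HFD over both sets, to place them beside the elements through which NRF2 and AP-1 act. Each line gives the 250 bases before the start site in the sense of the gene, from RefSeq on GRCm38.p6, with capitals for matches on either strand to the antioxidant response element core TGACNNNGC or the AP-1 core TGACTCA, which can overlap. The windows are chr4:116685349-116685598 (+) for Prdx1, chr9:108338830-108339079 (+) for Gpx1, chr12:76795555-76795804 (-) for Gpx2, chr16:90220512-90220761 (+) for Sod1 and chr8:107403206-107403455 (-) for Nqo1.
Prdx1: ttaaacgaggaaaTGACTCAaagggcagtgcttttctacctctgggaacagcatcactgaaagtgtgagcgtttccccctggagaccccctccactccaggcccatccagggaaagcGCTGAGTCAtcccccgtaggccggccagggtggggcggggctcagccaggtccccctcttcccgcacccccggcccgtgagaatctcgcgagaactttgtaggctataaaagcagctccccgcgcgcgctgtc
Gpx1: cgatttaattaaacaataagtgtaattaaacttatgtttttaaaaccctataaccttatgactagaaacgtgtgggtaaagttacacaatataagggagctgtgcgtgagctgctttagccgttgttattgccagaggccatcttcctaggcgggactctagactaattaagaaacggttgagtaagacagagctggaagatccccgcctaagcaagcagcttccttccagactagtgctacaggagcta
Gpx2: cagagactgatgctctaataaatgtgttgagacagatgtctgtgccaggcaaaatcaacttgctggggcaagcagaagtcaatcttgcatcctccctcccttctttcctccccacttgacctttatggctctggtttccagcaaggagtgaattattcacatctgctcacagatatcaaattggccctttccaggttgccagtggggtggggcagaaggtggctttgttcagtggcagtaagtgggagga
Sod1: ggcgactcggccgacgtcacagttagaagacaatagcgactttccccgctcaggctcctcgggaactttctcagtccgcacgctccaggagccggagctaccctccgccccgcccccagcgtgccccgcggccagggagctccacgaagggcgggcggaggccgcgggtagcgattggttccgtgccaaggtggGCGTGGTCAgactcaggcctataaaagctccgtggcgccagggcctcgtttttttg
Nqo1: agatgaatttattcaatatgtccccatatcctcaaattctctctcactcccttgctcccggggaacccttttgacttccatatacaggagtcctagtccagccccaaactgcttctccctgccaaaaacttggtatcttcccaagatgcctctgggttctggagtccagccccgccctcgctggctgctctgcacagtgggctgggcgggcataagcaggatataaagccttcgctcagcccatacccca
In windows from 250 bases before to 50 bases after the start, 9 of the 10 genes had a sequence in the table, and 3 of them held the antioxidant response element core. These were Prdx1, Sod1 and Txnrd1, the last in 1 of its 3 windows, against 14% of 27025 genes with at least 1 such window and 12.4% of the 32851 windows. Prdx1 also held 2 copies of the AP-1 core, which was found in 5.2% of all windows, and 1 of these lay inside its antioxidant response element core at 133 to 125 bases before the start. Sod1 held TGACCACGC on the reverse strand at 56 to 48 bases before the start. The windows of Gpx1, Gpx2 and Nqo1 held neither sequence, which says only that these letters are absent from these windows. Hmox1 is named only.

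The library totals ranged from 189340 to 4690213 reads on genes, and 2 libraries, both at 9 weeks, had under 600000. The 10 genes together held a median of 0.168% of the reads on RFD and 0.236% on HFD at 9 weeks, and of 0.189% and 0.302% at 22 weeks. The tuft markers were well detected, with all 14 tested and a median of 1272 CPM for Dclk1 and 2138 CPM for Trpm5 over the 45 libraries. CPM are read counts scaled to a common library size (counts per 1e6) after TMM scaling within each set. The level of the tuft markers differed between libraries, and it is given as the mean log2 level of the 14 genes minus the mean of the lists for enterocytes, goblet, Paneth, enteroendocrine and stem cells. Its median was 2.58 on RFD and 0.33 on HFD at 9 weeks, and 2.96 and 2.62 at 22 weeks. In 9 libraries, 2 on RFD and 5 on HFD at 9 weeks and 1 on each diet at 22 weeks, it was at or below 0, and these are called libraries of low tuft signal. In the fit over both sets, 4 of the 14 tuft markers were called lower on HFD and none was called higher, and all 14 had a fold change below 0. The Paneth markers had a median level of 7.89 on RFD and 10.99 on HFD at 9 weeks and of 7.38 and 9.61 at 22 weeks, on the log2 scale, with 1 of 6 called higher over both sets. Goblet markers, 2 of 7, and stem and cycling markers, 1 of 5, were called higher as well, and 2 of 5 T cell markers were called lower. The T cell markers lay near the floor, and Cd3e, Gzma, Gzmb and Cd7 had a median of 0 CPM. Beside these counts, 12% of all genes tested were called over both sets, and 6.11% were called higher. Enterocyte markers were split, with 2 of 10 called higher and 2 lower, and 1 of 7 enteroendocrine markers was called lower. Among macrophage and erythroid markers 2 of 5 and 3 of 4 were called higher at 22 weeks, where 0.728% of all genes were called, and none over both sets. Summed macrophage markers lay between 0 and 106.4 CPM on RFD and between 0 and 2323 CPM on HFD at 22 weeks. Median log2 levels there were 0.54 on RFD and 0.55 on HFD for macrophage and 0.25 and 0.24 for erythroid markers. The macrophage level was 8.44 in HFD mouse 31 and 0.90 in the next HFD mouse. The highest erythroid levels were 8.38 in HFD mouse 70 and 5.10 in HFD mouse 31. Of the 6 eosinophil markers 1, Ccr3, passed the filter, and the defining genes Epx and Prg2 had a median of 0 CPM. Neither B and plasma cell nor M cell markers held a call. The part of these cell types in the results on single genes was not tested. Whether a change in a gene's level came from fewer cells of a type or from less RNA per cell cannot be told apart in such libraries.

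Over both sets together, 5 of the 10 genes, Prdx1, Gpx1, Gpx2, Sod1 and Nqo1, rose on HFD by 1.29-fold to 2.17-fold, and none fell (edgeR's quasi-likelihood test with the set as a term, adjusted p under 0.1, 23 mice on HFD and 22 on RFD). Of all genes tested, 12% were called in this fit and 6.11% were called higher. The median log2 fold change was 0.40 over the 10 genes and -0.06 over all genes tested. Within the sets, where fewer mice were compared, Gpx2 alone was called at 9 weeks and none of the 10 at 22 weeks, against 3.07% of all genes called at 9 weeks, 1.83% called higher, and 0.728% called at 22 weeks. In the edgeR test 4 of the 10 genes had an unadjusted p under 0.05 at 9 weeks, against 18.2% of all genes, and 5 at 22 weeks, against 10.3%. DESeq2 called 2 of the 10 at 22 weeks, Prdx1 and Gpx1, and 351 genes in all. The fold changes had the same direction in both sets for 9 of the 10 genes and for 70.4% of all genes tested. No difference in the diet effect between the sets passed the test for any of the 10, with unadjusted p from 0.164 to 0.979 and 0 calls by edgeR or DESeq2. The intervals were wide, for Hmox1 from -0.59 to 2.99 around a difference of 1.20 in log2. Of all genes, 0.00713% were called in that test, and 459 had an unadjusted p under 0.05.

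**Figure D1:**
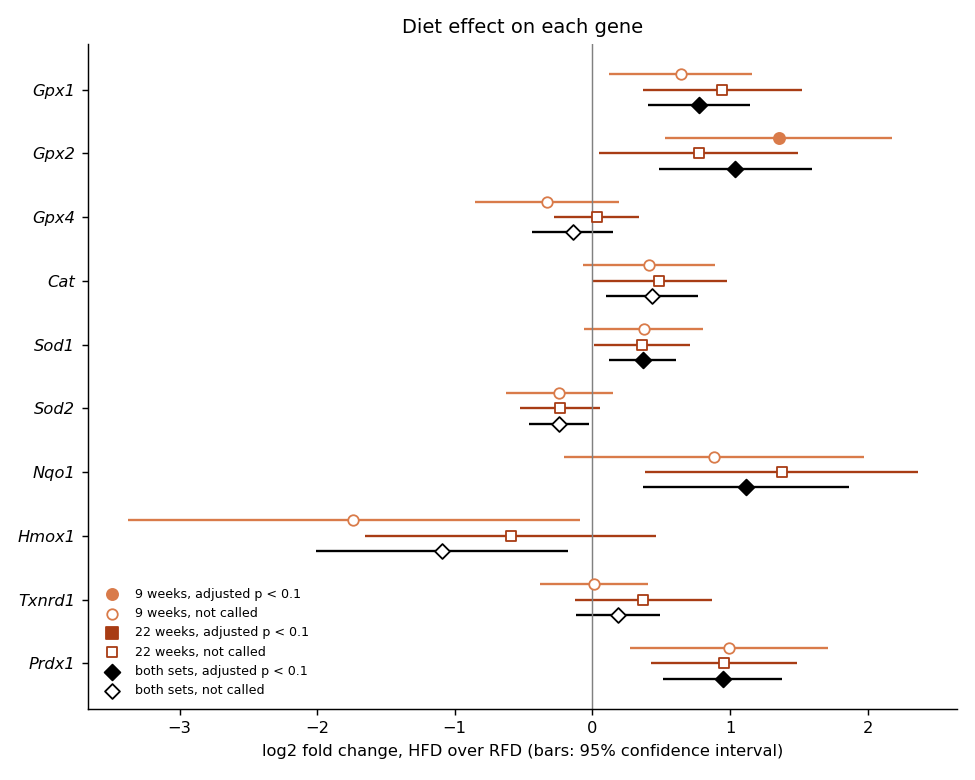
Log2 fold change of HFD over RFD for each gene at 9 weeks, at 22 weeks and over both sets, with 95% confidence intervals from edgeR's quasi-likelihood fit. Filled symbols have an adjusted p under 0.1: Gpx2 at 9 weeks, and Gpx1, Gpx2, Sod1, Nqo1 and Prdx1 over both sets.

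Prdx1 (ENSMUSG00000028691, chr4:116685544-116700822), a peroxiredoxin of the cytosol that reduces hydrogen peroxide with electrons from thioredoxin, had the smallest p of the 10 genes over both sets. At 9 weeks it ranged from 189.8 to 1067 CPM on RFD with a median of 497.5, and from 321.6 to 2210 CPM on HFD with a median of 996.0. The groups overlapped, with 9 of 11 HFD values above the middle RFD value and 5 above all RFD values. That is a difference of 0.99 on the log2 scale in the edgeR fit, with an SE of 0.35 and an adjusted p of 0.144. At 22 weeks the range was 198.5 to 1208 CPM on RFD, median 528.0, and 489.8 to 2793 CPM on HFD, median 940.2. Again the groups overlapped, but 11 of 12 mice on HFD were above the RFD median and 3 above every mouse on RFD. The fitted difference at 22 weeks was 0.96 (log2, SE 0.26), with an adjusted p of 0.108. Over both sets Prdx1 rose 1.93-fold on HFD (log2 fold change 0.95, 95% confidence interval 0.51 to 1.38, SE 0.22, adjusted p = 0.00587 in edgeR's quasi-likelihood test). It remained called when any 1 of the 45 libraries was left out, with an adjusted p of at most 0.0128.

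Gpx1 (ENSMUSG00000063856, chr9:108338903-108340343) encodes the glutathione peroxidase found in the cytosol and mitochondria of most cells. In the set of 9 weeks it ranged from 146.4 to 607.5 CPM on RFD, median 241.2, and from 273.6 to 821.4 CPM on HFD, median 413.8. All 11 HFD values exceeded the middle RFD value, and 7 of 11 mice on RFD lay below every mouse on HFD. The difference came to 0.64 on the log2 scale with an SE of 0.25 and did not pass the test (adjusted p = 0.178). At 22 weeks the range was 124.9 to 545.5 CPM on RFD, median 217.3, and 212.5 to 1599 CPM on HFD, median 362.2. The highest value belonged to a library of low tuft signal, and 11 of 12 mice on HFD were above the RFD median. Gpx1 differed by 0.95 (log2, SE 0.28) with an adjusted p of 0.163, and by 0.60 without that library (adjusted p = 0.319). Without RFD mouse 1, also a library of low tuft signal, Gpx1 differed by 1.19 and was called (adjusted p = 0.0194). Taking both sets together, Gpx1 rose 1.71-fold (95% confidence interval 1.33 to 2.21, log2 fold change 0.78, SE 0.18, adjusted p = 0.0083), and the call held without any of the 45 libraries in turn.

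Gpx2 (ENSMUSG00000042808, chr12:76792333-76795554), the glutathione peroxidase of the gut epithelium, was the gene called at 9 weeks. It ranged from 16.7 to 335.8 CPM on RFD, median 57.3, and from 48.1 to 420.7 CPM on HFD, median 195.2. On HFD 10 of 11 values lay above the middle RFD value, and 3 lay above all of RFD. Gpx2 rose 2.56-fold at 9 weeks (95% confidence interval 1.44 to 4.53, log2 fold change 1.35, SE 0.40, adjusted p = 0.0894). That adjusted p stood close to the threshold, and it went above 0.1 when any 1 of 16 of the 22 libraries was left out, up to 0.183. With the tuft marker difference as a covariate Gpx2 was 0.80 in log2 at 9 weeks (adjusted p = 0.555), and 5 of 10 other settings called it. At 22 weeks Gpx2 ranged from 55.2 to 387.2 CPM on RFD, median 176.7, and from 109.1 to 819.7 CPM on HFD, median 235.6. The groups overlapped widely, with 8 of 12 mice on HFD above the RFD median and 5 above every mouse on RFD. Here the difference was 0.77 (log2, SE 0.35), with an adjusted p of 0.456. In the fit over both sets it rose 2.05-fold (95% confidence interval 1.40 to 3.02, log2 fold change 1.04, SE 0.28, adjusted p = 0.0177), again called without any of the 45 libraries in turn.

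Gpx4 (ENSMUSG00000075706, chr10:80047166-80056439), which reduces lipid peroxides in membranes and protects from ferroptosis, was not called in either set or over both. Its median was 214.4 CPM on RFD and 140.9 on HFD at 9 weeks, and 349.4 and 341.0 CPM at 22 weeks. On RFD it ranged from 63.7 to 327.5 CPM at 9 weeks and from 220.6 to 454.5 at 22 weeks, and on HFD from 84.5 to 253.9 and from 260.7 to 474.8. The diets overlapped over nearly the whole range in both sets. Over both sets the log2 fold change was -0.14 with a 95% confidence interval from -0.44 to 0.15 (adjusted p = 0.585). All 9 libraries of low tuft signal lay at or below the median of their own group for Gpx4, whereas 7 of the 9 lay above it for Prdx1, 7 for Gpx1 and 8 for Gpx2.

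Sod1 (ENSMUSG00000022982, chr16:90220754-90226329), the copper and zinc superoxide dismutase, rose by a smaller amount. It ranged from 63.7 to 289.9 CPM on RFD, median 228.4, and from 208.5 to 445.7 CPM on HFD, median 244.7, at 9 weeks. The lowest value on RFD came from the library with the fewest reads, in which 10 reads of Sod1 were counted. At 22 weeks the range was 208.4 to 553.4 CPM on RFD, median 329.5, and 325.6 to 627.6 CPM on HFD, median 447.7, with 10 of 12 mice on HFD above the RFD median. In log2 units Sod1 differed by 0.37 at 9 weeks (SE 0.21, adjusted p = 0.356) and by 0.36 at 22 weeks (SE 0.17, adjusted p = 0.465). Over both sets Sod1 rose 1.29-fold (95% confidence interval 1.09 to 1.53, SE 0.12 on the log2 scale, adjusted p = 0.0569). The call was lost in 5 of 10 other settings and without HFD mouse 6 of the set of 9 weeks, a library of low tuft signal (adjusted p = 0.102).

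Sod2 (ENSMUSG00000006818, chr17:13006846-13040063), the manganese superoxide dismutase of mitochondria, had lower values on HFD that did not pass the test. Its median was 136.0 CPM on RFD and 109.1 on HFD at 9 weeks, and 201.7 and 160.9 CPM at 22 weeks. In both sets 10 HFD libraries, of 11 and of 12, lay under the middle value of RFD. It ranged from 63.7 to 186.5 CPM on RFD and from 64.1 to 184.1 on HFD at 9 weeks, and from 146.1 to 267.7 and from 133.5 to 219.8 CPM at 22 weeks. Over both sets the Sod2 difference was -0.24 in log2 (95% confidence interval -0.46 to -0.03, adjusted p = 0.155).

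Cat (ENSMUSG00000027187, chr2:103453849-103485160), the catalase of peroxisomes, lay just outside the threshold over both sets. Its median was 82.7 CPM on RFD and 113.9 on HFD at 9 weeks, and 113.7 and 163.7 CPM at 22 weeks. The range on RFD was 44.6 to 145.6 CPM at 9 weeks and 58.5 to 278.5 at 22 weeks, and on HFD it was 51.0 to 174.0 and 68.1 to 253.4. Of the HFD values 8 of 11 at 9 weeks and 9 of 12 at 22 weeks exceeded the middle RFD value. Over both sets Cat differed by 0.43 in log2 (95% confidence interval 0.10 to 0.77, adjusted p = 0.101), and 4 of 10 other settings called it.

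Among the genes known as NRF2 targets, Nqo1 (ENSMUSG00000003849, chr8:107388225-107403206), a quinone reductase, rose and had few reads. At 9 weeks it ranged from 0 to 32.1 CPM on RFD, median 12.2, and from 1.56 to 63.6 CPM on HFD, median 16.7. At 22 weeks it ranged from 0 to 41.1 CPM on RFD, median 7.15, and from 9.53 to 64.4 CPM on HFD, median 33.5. All 12 mice on HFD at 22 weeks were above the RFD median, and 8 of 11 mice on RFD were below every mouse on HFD. Nqo1 differed in log2 by 0.88 at 9 weeks (SE 0.53, adjusted p = 0.391) and by 1.38 at 22 weeks (SE 0.48, adjusted p = 0.278). Over both sets Nqo1 rose 2.17-fold (95% confidence interval 1.29 to 3.64, adjusted p = 0.0572). The call was lost without HFD mouse 6 of the set of 9 weeks, a library of low tuft signal (adjusted p = 0.103). Per group 9 to 12 libraries had more than 5 reads of Nqo1.

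Hmox1 (ENSMUSG00000005413, chr8:75093621-75100589), heme oxygenase, pointed the other way and had the lowest mean TPM of the 10 in 3 of the 4 groups, with Nqo1 below it on RFD at 22 weeks. On RFD it ranged from 0 to 12.2 CPM at 9 weeks, median 5.93, and from 0 to 24.5 CPM at 22 weeks, median 13.2. On HFD it ranged from 0 to 7.37 CPM, median 0.403, and from 0 to 20.9 CPM, median 8.18. Of the HFD values 10 of 11 at 9 weeks and 9 of 12 at 22 weeks lay under the middle RFD value. No read was counted in 5 of the 11 HFD libraries at 9 weeks, where 3 libraries had more than 5 reads, against 1 and 6 of 11 on RFD. Over both sets Hmox1 differed by -1.09 in log2 (95% confidence interval -2.01 to -0.18, adjusted p = 0.133), which did not pass the test in the edgeR fit, whereas DESeq2 called it (adjusted p = 0.0496). The highest Hmox1 value on HFD at 22 weeks, 20.9 CPM, was in the library with the highest macrophage marker level, 8.44 on the log2 scale. However, the highest value of all, 24.5 CPM on RFD at 22 weeks, was in a library with a level of 0.37. In the library with a level of 6.70, the highest on HFD at 9 weeks, Hmox1 was 1.13 CPM. The part of macrophage RNA in Hmox1 was not tested.

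Txnrd1 (ENSMUSG00000020250, chr10:82833951-82897712), which reduces thioredoxin in the cytosol, was not called between the diets in either set or over both. Its median was 54.0 CPM on RFD and 49.2 on HFD at 9 weeks, and 56.8 and 72.0 CPM at 22 weeks. It ranged from 42.0 to 66.9 CPM on RFD and from 33.6 to 93.5 on HFD at 9 weeks, and from 8.09 to 86.4 and from 47.5 to 107.9 CPM at 22 weeks. Txnrd1 differed by 0.19 in log2 over both sets, with a 95% confidence interval from -0.12 to 0.49 (adjusted p = 0.472), so that a rise of up to 1.41-fold lay within the interval.

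Of the 5 genes that rose, 4 had their highest values mostly in libraries of low tuft signal. A library of low tuft signal held the highest CPM in 4 of 4 groups for Prdx1, Gpx1 and Nqo1 and in 3 of 4 for Gpx2, and in 0 of 4 for Gpx4, Cat, Sod2 and Hmox1. Sod1 and Txnrd1 were highest in such a library in 1 of 4 groups each. The fit over both sets was repeated without the 9 libraries, a setting chosen after seeing the data. Leaving them out does not make the tuft signal of the remaining libraries equal between the diets. Of all 14020 genes, 1040 were called higher and 415 lower in this fit. In log2 the difference was then 0.97 for Prdx1 (adjusted p = 0.00305), 0.79 for Gpx1 (0.00137), 1.12 for Gpx2 (0.0106) and 1.44 for Nqo1 (0.0323), all 4 still called, and Sod1 was no longer called (0.36, adjusted p = 0.128). At 9 weeks alone no gene at all was called without the 9 libraries (15 libraries left, 1295 genes with an unadjusted p under 0.05 in edgeR). At 22 weeks Prdx1, Gpx1 and Nqo1 were then called, and of all genes 174 were called higher and 144 lower. With the marker difference as a covariate in place of leaving libraries out, 2 of the 5 genes kept their call. In that fit 262 of all 14020 genes were called higher and 187 lower. For Prdx1 the difference was 0.65 in log2 (SE 0.17, adjusted p = 0.027) and for Gpx1 0.50 (SE 0.14, adjusted p = 0.0428). Those of Gpx2, 0.68 (adjusted p = 0.142), Nqo1, 0.90 (0.191), and Sod1, 0.37 (0.103), no longer passed. Under the covariate Gpx4 went from -0.14 to 0.06, not called in either fit.

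**Figure D2:**
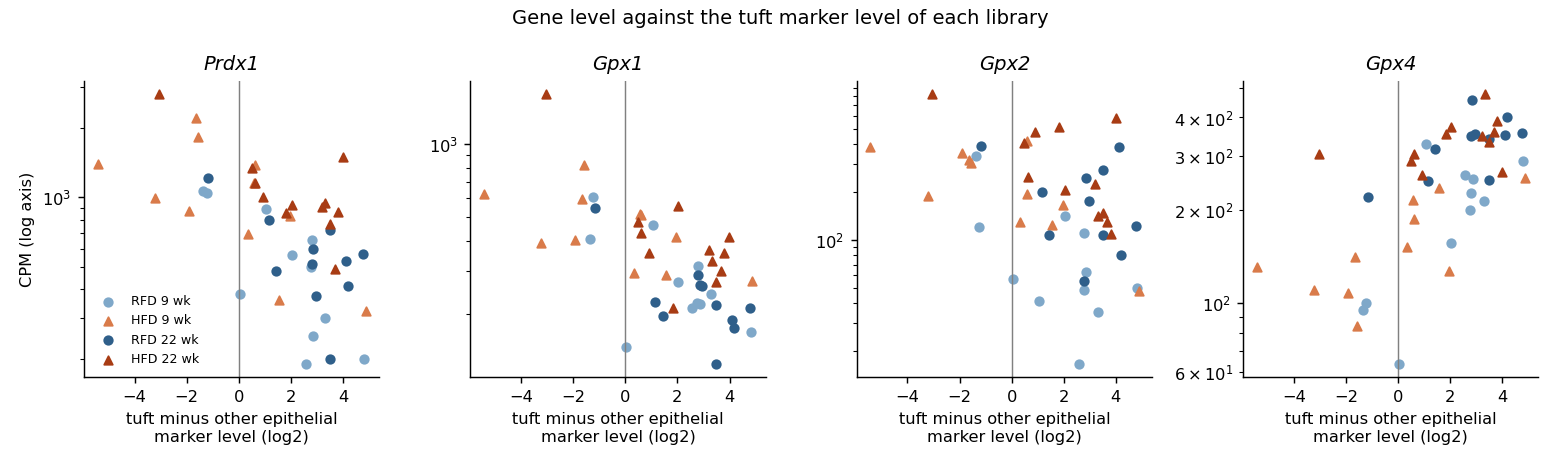
CPM of Prdx1, Gpx1, Gpx2 and Gpx4 on log axes against the tuft marker level minus that of the other epithelial lists in each of the 45 libraries, with circles for RFD and triangles for HFD. Of the 9 libraries at or left of 0, 7 lie above the median of their own group for Prdx1, 7 for Gpx1, 8 for Gpx2 and 0 for Gpx4.

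**Figure D3:**
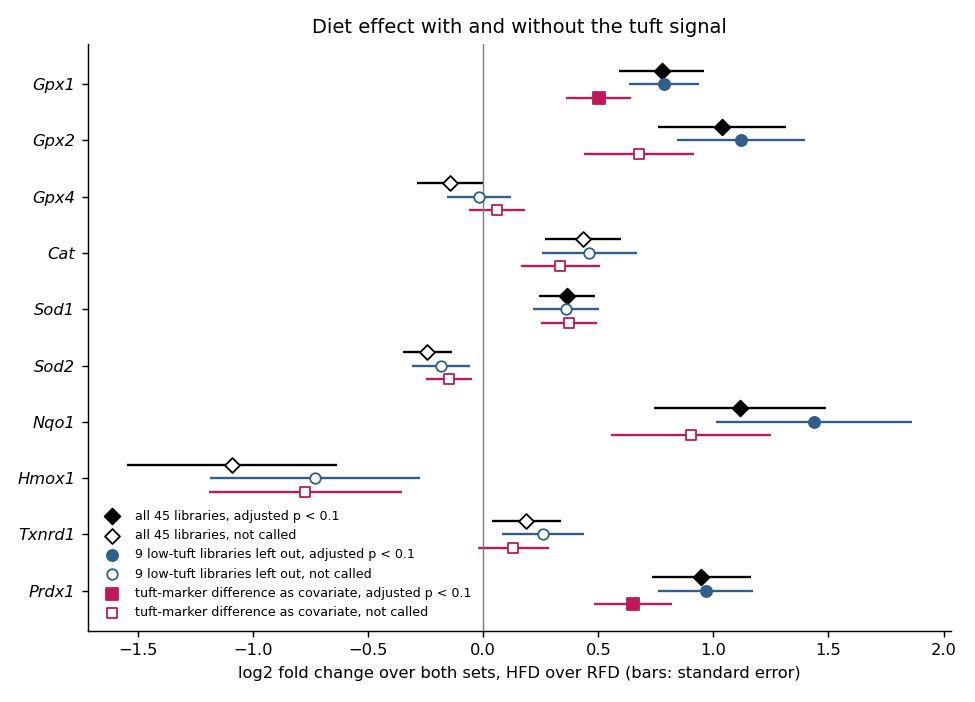
Log2 fold change over both sets with standard errors in all 45 libraries, without the 9 libraries of low tuft signal, and with the tuft marker difference as a covariate. Prdx1 and Gpx1 are filled, adjusted p under 0.1, in all 3 fits.

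The titles number the mice in 3 runs, from 1 to 8, in multiples of 10, and between 21 and 64, and the labels do not call these runs batches. RFD mouse 84 of the set of 9 weeks and HFD mouse 65 of the set of 22 weeks are in none of the runs and were left out of these comparisons. Within each run and set the difference in mean log2(CPM + 1) was above 0 in 6 of 6 comparisons for Gpx1 (0.58 to 1.31), Prdx1 (0.57 to 1.34), Gpx2 (0.06 to 1.80) and Sod1 (0.03 to 0.89), and in 5 of 6 for Nqo1 and Cat. It was below 0 in 6 of 6 for Sod2 and Hmox1, and split 3 to 3 for Gpx4 and Txnrd1. These are means of 3 or 4 mice per diet, given without a test. With the run as a batch term the 5 genes were called over both sets, and Cat as well (adjusted p = 0.0659).

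Levels per transcript length were compared in TPM, and in this order Sod1 or Prdx1 came first in every group. Sod1 had 505 ± 184 TPM on RFD and 631 ± 342 TPM on HFD at 9 weeks (SD, n = 11 each), and 841.5 ± 143 and 1125 ± 255 TPM at 22 weeks (SD, n = 11 and 12). Prdx1 was first on HFD at 9 weeks with 698 ± 516 TPM, but above Sod1 in 7 of 11 libraries only. On HFD at 22 weeks Sod1 was above Prdx1 (828 ± 280 TPM) in 10 of 12 libraries, and Prdx1 above Gpx4 (514 ± 151 TPM) in 11 of 12. Gpx4 and Gpx1 (486 ± 206 TPM) could not be ordered there, each being higher in 6 of 12 libraries. Gpx2 took rank 5 by mean in all 4 groups, with means from 86.1 to 351.8 TPM, but on HFD at 9 weeks Gpx4 was above it in 5 of 11 libraries only. Cat and Sod2, from 24.6 to 58.4 TPM, followed, with Cat above Sod2 in 9 of 11 and 9 of 12 libraries on HFD and Sod2 above Cat in 6 of 11 and 7 of 11 on RFD. Txnrd1, Nqo1 and Hmox1 made up the low end, from 1.21 to 19.5 TPM, and on HFD at 22 weeks Nqo1 and Txnrd1 were each higher in 6 of 12 libraries.

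**Figure D4:**
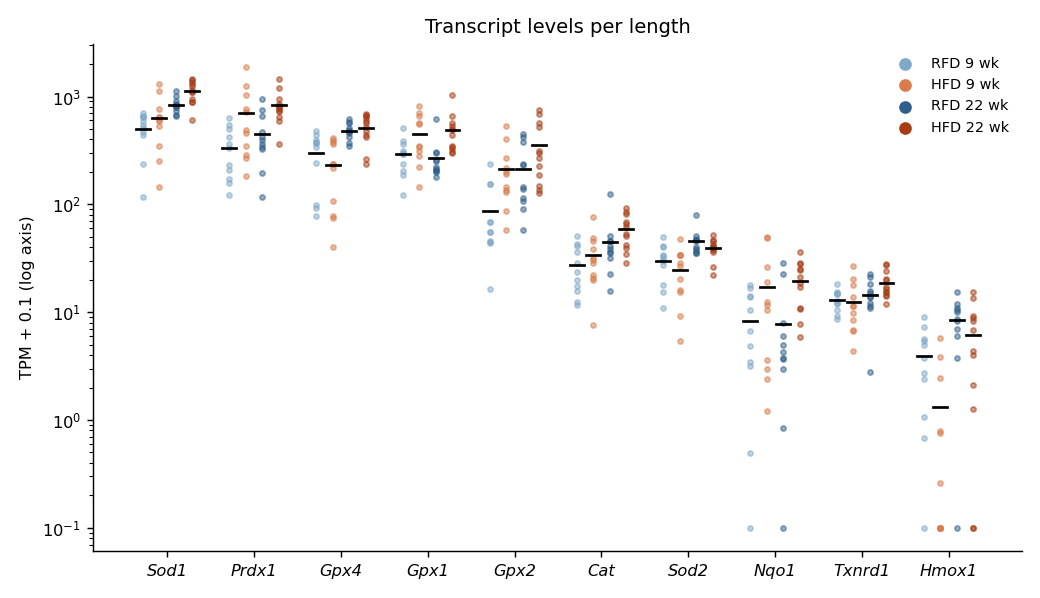
TPM of each gene in every library, with 0.1 added, on a log axis, with genes in the order of their means on HFD at 22 weeks and black bars for group means. Sod1, Prdx1, Gpx4, Gpx1 and Gpx2 form the upper range, with group means from 86.1 to 1125 TPM.

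Across the 45 libraries, with group means removed, the pairs of genes with the largest Pearson correlation of log2(CPM + 1) were Nqo1 with Prdx1 (0.75), Gpx1 with Prdx1 (0.73), Gpx2 with Prdx1 (0.69) and Gpx4 with Sod2 (0.66). Libraries share tuft signal and depth across genes, and these values are a description. For Gpx2, the gene with the smallest p at 9 weeks, the genes most like it outside the set were Ptges3 (r = 0.81), Bzw1 (0.78) and Eif4a1 (0.77). For Prdx1, with the smallest p at 22 weeks, they were Mtch2 (r = 0.95), the ATP synthase gene Atp5c1 (0.94) and Cdh17 (0.92), an intestinal cadherin.

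Related genes of the same pathways were taken from 11 lists with 65 genes, of which 58 were tested. The lists, too, were chosen with earlier results of these data known. Over both sets 14 were called higher and 3 lower, against 12% of all genes called either way, with a median log2 fold change of 0.23 over the 58 genes. Both the glutathione and the thioredoxin systems draw on NADPH. In the NADPH list 6 of 7 genes were called higher, Idh1, Idh2, Tkt, Pgd, Taldo1 and Nnt, and 2 of 7, Idh1 and Tkt, with the marker covariate. Of these, Tkt and Taldo1 are enzymes of the pentose phosphate pathway that do not form NADPH themselves. Idh1, the cytosolic NADP-dependent isocitrate dehydrogenase, was the pathway gene called in each set, with medians of 134.6 CPM on RFD and 203.7 on HFD at 9 weeks and of 163.0 and 312.7 CPM at 22 weeks. It rose 1.93-fold at 9 weeks (log2 fold change 0.95, SE 0.28, adjusted p = 0.0866) and 1.99-fold at 22 weeks (0.99, SE 0.22, adjusted p = 0.0303). Idh2, its mitochondrial counterpart, rose at 9 weeks (log2 fold change 0.97, SE 0.30, adjusted p = 0.094), and was 0.39 with the covariate (adjusted p = 0.741). At 9 weeks no pathway gene was called with the covariate or without the libraries of low tuft signal, in edgeR fits in which Idh1 was 0.80 and 0.95 (adjusted p = 0.44 and 0.279). At 22 weeks Idh1 alone was called with the covariate. Without the libraries of low tuft signal 5 pathway genes were called higher there, Idh1, Idh2, Tkt, Prdx4 and Nfe2l2, and 2 lower, Prdx5 and Eefsec. Of all 14020 genes, 174 were called higher and 144 lower in that fit. G6pdx, the entry enzyme of the pentose phosphate pathway, was not called (0.10, adjusted p = 0.825).

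Of the other peroxiredoxins and sulfiredoxin, Prdx3 and Prdx4 rose and Prdx5 fell over both sets, and 6 of 6 were tested. With the covariate Prdx3 was 0.37 and no longer called (adjusted p = 0.201). Prdx5, a peroxiredoxin of mitochondria and peroxisomes, had medians of 145.4 CPM on RFD and 90.3 on HFD at 9 weeks, and of 249.8 and 169.7 CPM at 22 weeks. In log2 it fell by 0.65 at 9 weeks (SE 0.19, adjusted p = 0.0882) and by 0.58 over both sets (SE 0.12, adjusted p = 0.00323), and it kept its call with the marker covariate (-0.43, adjusted p = 0.0181). Among thioredoxins and glutaredoxins 3 of 9 rose over both sets, Txn1 (0.49, adjusted p = 0.00986), the mitochondrial Txn2 (0.42, 0.0802) and Glrx3 (0.57, 0.0119), and Glrx3 was called at 9 weeks as well (0.71, adjusted p = 0.092). Txn2 lost its call with the covariate (0.21, adjusted p = 0.445). Glutathione synthesis and cystine uptake had 1 of 6 genes called, Gss (0.69, adjusted p = 0.049, and 0.42 with adjusted p = 0.311 with the covariate), while Gclc and Gclm, the subunits of the rate-limiting enzyme, were not called (-0.34 and -0.21).

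Of 5 regulators of NRF2, Nfe2l2, which encodes NRF2 itself, rose over both sets (0.55, SE 0.19, adjusted p = 0.0619). Bach1, a repressor that competes with NRF2 for its elements, had few reads and fell over both sets (-1.35, SE 0.49, adjusted p = 0.0803). Bach1 medians in the sets of shorter and longer feeding were 2.67 and 3.90 CPM on RFD, and 0.92 and 1.97 CPM on HFD. The lowest Bach1 value was 0 CPM in each group. Neither gene was called within a set when all its libraries were used. Without the libraries of low tuft signal Nfe2l2 was called higher at 22 weeks. With the covariate Nfe2l2 was 0.33 and not called (adjusted p = 0.309), and Bach1 was -1.80 and called (adjusted p = 0.0637). Keap1, the protein that marks NRF2 for degradation, was not called (-0.12, adjusted p = 0.739). Fth1, the ferritin heavy chain, was the 1 of 6 heme and iron genes called, and it fell (-0.35, adjusted p = 0.0659), but the call was lost without the libraries of low tuft signal (-0.31, adjusted p = 0.162) and with the covariate (-0.30, 0.191). Sephs2, which makes the selenium donor for selenocysteine, was the 1 of 5 selenoprotein synthesis genes called (0.36, adjusted p = 0.043), and was 0.23 with the covariate (adjusted p = 0.24). None was called among the 2 tested of other glutathione peroxidases and reductase, the 2 of Sod3 and the copper chaperone Ccs, the 3 methionine sulfoxide reductases and the 7 sources of superoxide and hydrogen peroxide (1, 1, 0 and 0 with an unadjusted p under 0.05 in edgeR over both sets). Without the 9 libraries of low tuft signal 16 of the 58 pathway genes were called higher and 2 lower, against 1040 and 415 of all 14020 genes. With the marker covariate 6 were called higher and 2 lower, against 262 and 187 of all genes. Idh1 (0.85, adjusted p = 0.00221), Tkt, Txn1, Glrx3 and Prdx5 were among the latter 8. Ccs was called in the first of these fits.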

How the data were processed

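Libraries of sorted tuft cells were made by Smart-seq2 and Nextera XT and sequenced in pairs. Per the submitters' processing notes, Cutadapt 1.15, STAR 2.6.0 and RSEM were run against GRCm38. The authors deposited RSEM expected counts, in which 8.789% of values above 0 were not whole, with FPKM, which was not used, and TPM, which gave levels per length. The deposited expected counts were rounded, and genes with more than 5 reads in at least 6 of 45 libraries were tested, 14020 after 27 genes with a shared symbol were removed. The 24 columns with no sample in the labels were not used. Symbols are from GENCODE M21 (47310 of 47729 identifiers). The authors' weighting of counts by estimated cell type and their SAM-seq test were not repeated.

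edgeR 4.0.16 in R 4.3.3 was run with TMM scaling, the quasi-likelihood test (two-sided, not robust) and Benjamini-Hochberg adjustment over all genes tested, and adjusted p under 0.1 was called. The diets were compared in each set, over both sets with the set as a term, and between the sets. Alternatives were DESeq2 1.42.0, its size factors, limma 3.58.1 on log2(TPM + 1) and log2(TPM + 0.1), no filter, the runs of mouse numbers as a batch, the tuft marker difference as a covariate, no libraries under 600000 reads, each library left out in turn, and a replicate block. A robust fit, the 9 libraries of low tuft signal left out, and leaving out each library over both sets were added after seeing the data. The scripts were tested on simulated data. Counts give the depth, and PCR duplicates were not marked by molecular identifiers. Counting strand is not given in the sources used here.

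The 10 genes, the marker lists and the pathway lists were chosen with earlier results of these data known. All 10 genes are named, with every pathway gene called in either set and the 3 genes most like the one with the smallest p in each set. Other pathway genes were named after their values were seen.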

Additional observations from a re-analysis of the deposited data

How the results depend on the processing

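Over both sets, Gpx1 and Prdx1 were called in all 10 alternative settings, Gpx2 and Nqo1 in 9 and Sod1 in 5, and the calls at 9 and at 22 weeks depended on the setting. Causes were not tested. At 9 weeks 431 genes were called (257 higher), against 1534 by DESeq2, 208 with no filter (133 higher), 254 without the libraries of low totals (119 higher), 19 with the marker covariate (8 higher), 9 and 5 by limma on log2(TPM + 1) and log2(TPM + 0.1), and 0 without the libraries of low tuft signal. With the runs as a batch 298 were higher and 137 lower. Of the 10 genes DESeq2 called 3 at 9 weeks, and 0 were called by limma, without low totals, with the covariate or without low tuft signal. Leaving out 1 library gave 48 to 2004 genes and 0 to 3 of the 10. At 22 weeks 102 genes were called, against 351 by DESeq2, 318 without low tuft signal, 163 with the runs as a batch, and 51 and 31 by limma on log2(TPM + 1) and log2(TPM + 0.1). The 10 genes held 0 calls, against 2 by DESeq2 and with the runs, 3 without low tuft signal, and 1 with the covariate, no filter or the robust fit. Leaving out 1 library gave 63 to 649 genes, the latter without RFD mouse 1, and 0 to 3 of the 10. Over both sets 1676 genes were called, against 2804 by DESeq2, 941 and 573 by limma on log2(TPM + 1) and log2(TPM + 0.1), and 449 with the covariate, and without low tuft signal 1040 were higher and 415 lower. Of the 10 genes DESeq2 called 8 and the covariate fit 2, against 5. Leaving out 1 library gave 1258 to 2836 genes, the latter without RFD mouse 1 of the set of 22 weeks, and 2545 without HFD mouse 64 of the set of 9 weeks. It gave 3 to 7 of the 10 genes, with 3 without HFD mouse 6 of the set of 9 weeks.

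Values near 0 changed sign. For Txnrd1 at 9 weeks (0.009) the log2 fold change was -0.018 by DESeq2, -0.031 with its size factors, -0.21 and -0.18 by limma on log2(TPM + 0.1) and log2(TPM + 1), -0.027 without low totals, -0.12 with the covariate, and -0.10 to 0.063 with 1 library left out. For Gpx4 it was 0.037 at 9 weeks and 0.061 over both sets with the covariate, and at 22 weeks -0.0047 without low tuft signal and -0.024 to 0.085 with 1 library left out. The difference between the sets was for Cat -0.013 by DESeq2 and -0.018 with its size factors, for Sod1 -0.013 with size factors, and for Sod2 -0.014 by DESeq2, -0.016 with size factors, -0.051 without low tuft signal, -0.00052 without low totals and -0.033 with the covariate. For Prdx1 it was 0.044 without low tuft signal, 0.090 by limma with either pseudocount, 0.065 without low totals, 0.26 with the covariate and 0.12 with the runs. The 1 gene called in the difference became 68 with no filter, and 0 by DESeq2, limma, the covariate, the runs, the robust fit, without low totals or low tuft signal, and with the replicate block.

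The replicate block could be fitted for the difference between the sets only, over 16 pairs of equal mouse numbers. Deviations of the pairs correlated from -0.39 to 0.38, with 2 over 0.1. Libraries share tuft signal and depth across genes, so these values cannot show what equal numbers mean, and the labels do not say. By the study's design the mice of the sets are different animals. With the replicate block 0 genes were called, 702 had an unadjusted p under 0.05, and Cat was -0.29, Sod1 -0.063 and Nqo1 -0.032. Depth limits genes of few reads, such as Hmox1, Nqo1 and Bach1.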
